A study of Saccharomyces cerevisiae with 30 samples.

Results

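Among budding yeast open reading frames (ORFs) that the authors class as Cytonuclear, 145 had footprints concentrated in polysomes pulled down with the signal recognition particle (SRP). They were chosen by one ratio, called r here: log2 of the summed counts of the 2 SRP72-bound polysome libraries over those of the 2 soluble polysome libraries, less the median of Cytonuclear ORFs. Members had r of 1.5 or more and at least 100 counts in each sum. Of 5904 ORFs, 3717 were Cytonuclear, 3164 of these reached 100 counts in both sums and were eligible, and 553 did not. The rule set aside by name 6 more ORFs past the threshold, namely SEC16, SRP72, SRP21, SRP54, NOP14 and RRP5. The 3019 eligible ORFs that are not members, these 6 among them, served for comparison. An r of 0 corresponded to a log2 ratio of counts of -1.83.

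SRP is a complex of protein and RNA that binds signal sequences and transmembrane segments as they emerge from the ribosome, and it brings the ribosome to its receptor on the endoplasmic reticulum (ER). SRP72, one of its protein subunits, contacts the SRP RNA and is not the part that holds the signal. Cytosolic and nuclear proteins normally lack such signals, so their messages are usually read by free ribosomes.

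The study sampled Saccharomyces cerevisiae messages in soluble, membrane-bound and SRP-bound form, with ribosome footprints in 10 libraries and poly(A) RNA in 14. BY4741 cells carrying a TAP affinity tag on SRP72 (srp72::SRP72-TAP-HIS3MX) gave the footprints: soluble, membrane and SRP72-bound polysomes without drug, 2 libraries each, and 4 single libraries from cultures given cycloheximide (CHX, which freezes elongating ribosomes) to 100 µg/mL just before harvest. The same tagged strain gave soluble, membrane and SRP72-bound RNA, 1 library each, from lysate incubated with CHX or with puromycin, which releases nascent chains and takes ribosomes apart. Soluble and membrane RNA also came, 1 library each, from W303 and from the mutant prt1-1 (strain CY2522), both at 25 °C and after a 1 h shift to 37 °C. Prt1 is a subunit of initiation factor eIF3, and this allele is known to lose function at the higher temperature. Sequencing depth ran from 16.1 to 34.7 M counts for footprints and from 3.1 to 34.3 M for RNA. All BY4741 samples carry the tag, and no pulldown from untagged cells is among the samples, so nonspecific capture was not measured. Whether the 2 replicates were separate cultures is not in the labels, and p-values therefore reflect only how much these particular libraries varied.

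Among the members r ranged from 1.51 to 5.75, with a median of 2.06. The members just inside the threshold were GYP7 (1.5075), which activates the GTPase of Ypt proteins, DOC1 (1.5076), a subunit of the anaphase-promoting complex, and DOT6 (1.5118), a repressor of ribosome assembly genes. Just outside it were TOM1 (1.4999), LDB17 (1.4945) and POL2 (1.4931). Of the 145 members 133 were past 1.5 in both replicates taken separately. The rule summed these same libraries, so this count is a description and no independent support. The absolute difference of r between replicates had a median of 0.18, against 0.12 for the other eligible ORFs. The 2 replicates correlated across the members with a Pearson r of 0.95, against 0.96 over all eligible ORFs. Both are descriptions over genes, and the 145 members are not independent replicates. The edgeR fit, which tested 5393 ORFs, called 145 of 145 members higher in SRP72-bound than in soluble polysomes, as their selection fixes, against 39.0% of all ORFs tested.

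ABP140 had the largest r, 5.75. It encodes an actin filament binding protein fused to a tRNA methyltransferase and lies on chromosome XV at 784857 to 786744 (sacCer3, RefSeq annotation). Footprints are given below as TMM-scaled CPM, counts relative to library size on a scale that allows for a few abundant messages taking a large share of one fraction. On it ABP140 had 64.5 and 41.2 in the soluble libraries, 366 and 574 in the membrane libraries, and 2756 and 1968 in the SRP72-bound libraries. The 3 fractions did not overlap.

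CDC27, a subunit of the anaphase-promoting complex on chromosome II at 67169 to 69445, had the next largest r, 5.07. Its footprints were 18.1 and 16.8 soluble, 29.7 and 24.1 membrane, and 510.4 and 448 SRP72-bound. The membrane values were close to the soluble ones, and the SRP72-bound values stood far above both. MLP2 (r 5.0), a filament protein of the nuclear pore basket on chromosome IX at 63028 to 68067, had 35.3 and 29.2 soluble, 72.5 and 72.0 membrane, and 931 and 773 SRP72-bound. UBX2 (r 4.86) lies on chromosome XIII at 244149 to 245903, and its protein recruits the Cdc48 ATPase to the ER for protein degradation. It had 7.37 and 8.05 soluble, 220.4 and 195 membrane, and 182 and 184 SRP72-bound. Unlike CDC27 and MLP2, UBX2 had membrane footprints as high as its SRP72-bound ones. ABP1 (r 4.71), an actin patch protein on chromosome III at 265068 to 266846, was the most heavily read of these 5, with 225.0 and 257 soluble, 357 and 570.2 membrane, and 5859 and 4120.0 SRP72-bound.

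The other 15 members with the largest r covered several functions. THI2 (4.52) activates thiamine genes, SEG1 (4.34) belongs to eisosomes at the plasma membrane, and MSB1 (4.32) acts in bud growth. PPZ1 (4.29) and PPZ2 (4.05) are paralogous phosphatases of salt tolerance, and ECM16 (4.28) is a helicase of small ribosomal subunit assembly. ITC1 (4.17) and INO80 (3.88) belong to chromatin remodelling complexes, and SET1 (3.62) methylates histone H3. LAS17 (3.75) and EDE1 (3.45) act in actin assembly and endocytosis. SAP1 (3.38) is an AAA ATPase, SWH1 (3.36) an oxysterol-binding protein, PCM1 (3.34) an enzyme on the way to UDP-N-acetylglucosamine, and SIP1 (3.31) a subunit of the Snf1 kinase.

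**Figure D1:**
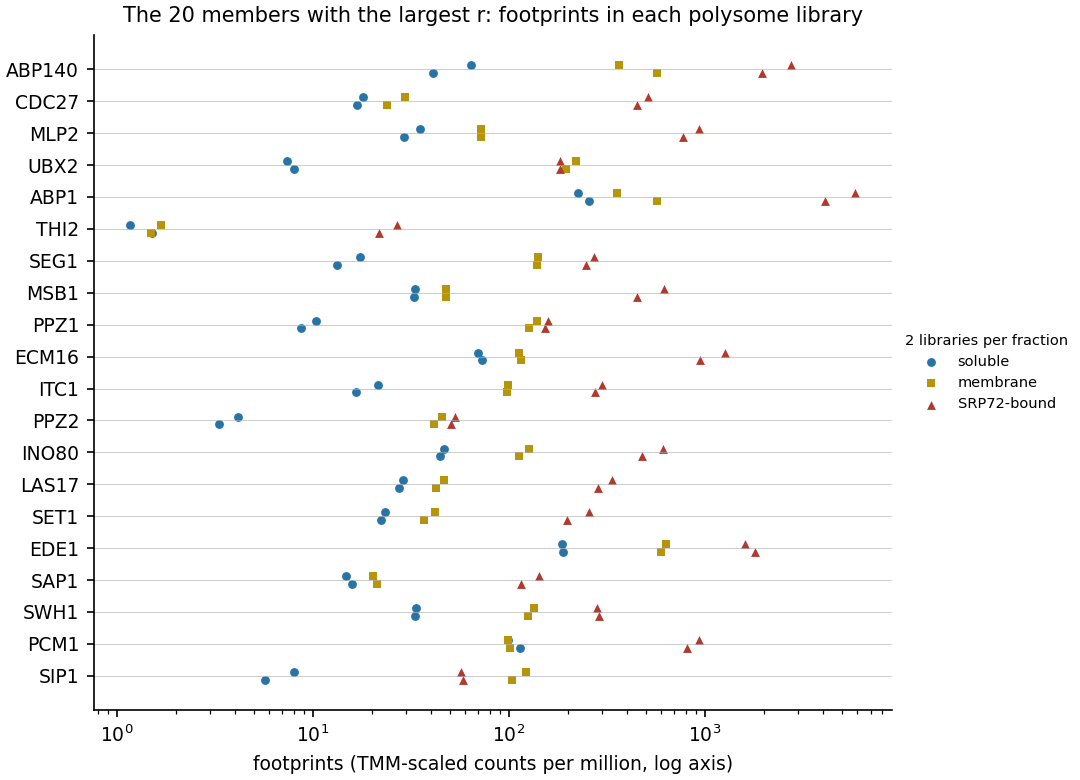
Footprints of the 20 members with the largest r in each of the 6 polysome libraries without drug, as TMM-scaled CPM on a log axis; each point is 1 library (circles soluble, squares membrane, triangles SRP72-bound). SRP72-bound values lie to the right of the soluble ones for each gene, as the selection requires, while the membrane values range from near the soluble ones (CDC27, PCM1) to about as far right as the SRP72-bound ones (UBX2, PPZ1) or beyond them (SIP1).

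Members were long. Their median length was 865 codons, with quartiles at 624 and 1264, against 409 codons with quartiles at 247 and 642 for the other eligible ORFs, and 111 of the 145 had more than 600 codons. Over all 3164 eligible ORFs r rose with length, with a Pearson r of 0.61 and a Spearman rho of 0.74 between r and log2 length, a description across genes whose counts come from the same 4 libraries. The median r was -0.54 for ORFs of 1 to 200 codons, 0.06 for 401 to 600 codons, 0.58 for 801 to 1000 codons and 1.33 for 1501 to 5000 codons. Members made up 0.581%, 2.97%, 6.88% and 30.7% of the eligible ORFs in those 4 classes. Across the 145 members alone the Pearson r was -0.03. The cut at 1.5 narrows the range of r among members, so this value cannot be set against the 0.61 over all eligible ORFs. Measured against the median of its own length class, r was 1.5 or more for 83 of the 145 members. The remaining members passed the threshold with less than that distance from ORFs of like length.

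The longest members were VPS13 (3144 codons, r 1.78), which moves lipids between organelles, TEL1 (2787 codons, r 1.92), a checkpoint kinase, and TOR2 (2474 codons, r 1.87), the growth-controlling kinase. The shortest were YJL047C-A (44 codons, r 3.26), SOH1 (127 codons, r 2.16) and NUT2 (157 codons, r 1.57), the last 2 being subunits of Mediator. YJL047C-A shares 49 bases on the same strand with the small nucleolar RNA gene SNR60, so its counts cannot be assigned to the ORF with certainty. The Ty element ORFs YJR029W (r 2.02) and YPR158W-B (r 1.78) belong to a repeated family, and each overlaps another ORF by 1323 bases on the same strand, which makes their counts uncertain as well. Paralogs such as PPZ1 and PPZ2, YAP1801 and YAP1802, and the oxysterol-binding SWH1, OSH2 and OSH3 could exchange reads, since how reads matching several places were counted is not stated in the sources at hand. INO80 shares only 2 bases with the ORF YGL149W on the opposite strand. No member overlapped an ORF of a signal sequence or transmembrane class.

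**Figure D2:**
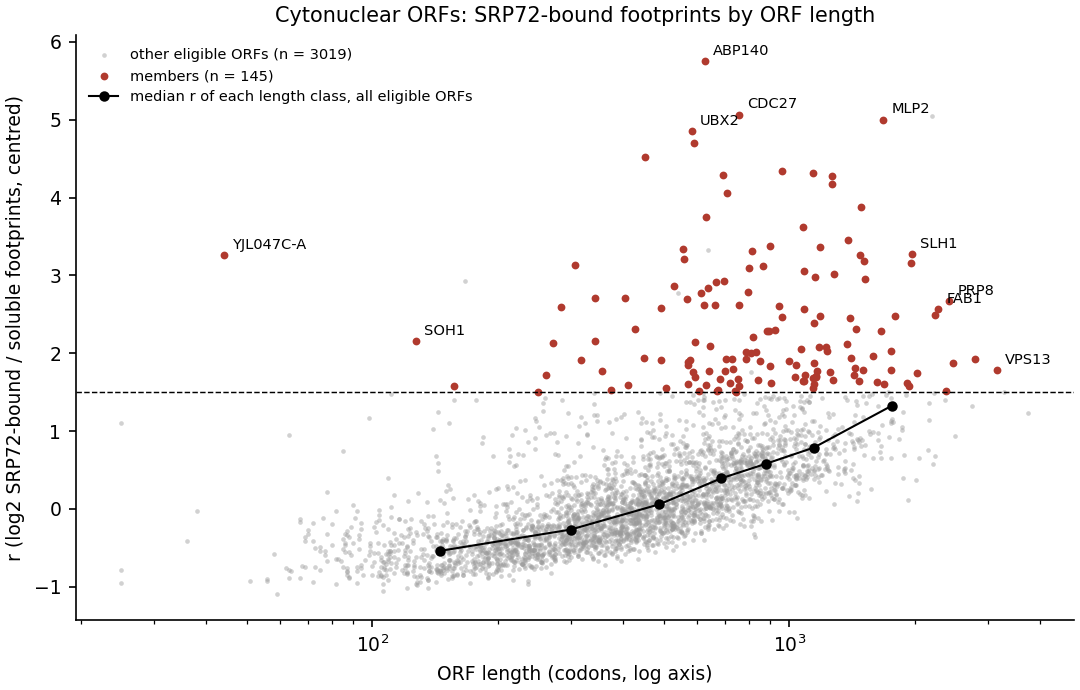
r (log2 SRP72-bound over soluble footprints, centred) against ORF length in codons (log axis) for 3164 eligible Cytonuclear ORFs; red points are the 145 members, grey points the 3019 others, black points the median r of each of 7 length classes, and the dashed line the threshold of 1.5. Medians climb from -0.54 to 1.33 with length, members with r above 4 lie between 450 and 1679 codons, and YJL047C-A stands alone at 44 codons; grey points above the line are the 6 ORFs left out by name.

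In the soluble fraction alone, RNA of the CHX lysate, in RPKM, which allows for ORF length and depth, had a median of 31.1 for members and 57.4 for the other eligible ORFs. Total RNA is not among the samples, so this is no measure of a message's abundance in the cell. None of the members carries a first signal position in the authors' deposited annotation. That table marks pronounced direct SRP binding for 9 Cytonuclear ORFs, and 4 of these are members: CDC27 at codon 108, PCM1 at codon 198, SOH1 at codon 104 and CRM1, the main nuclear exportin, at codon 853. RVS167 (r 0.539), SIN4 (0.817), TRM44 (0.825), THP3 (1.013) and GIM4 (1.478) are marked too but were below the threshold. All 9 were eligible, and members are 145 of 3164 eligible ORFs. The class name and known residence differ for some members. UBX2 and PEX2 are known as membrane proteins of the ER and of peroxisomes, PLN1 coats lipid droplets, and ATP22 and TCM62 act in mitochondria.

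Gene lists written without reference to membership, although with earlier results of the series known, place the members. Nucleoporins had 6 members among 22 eligible genes (NUP1, NUP2, NUP100, NUP120, NUP170 and MLP2), and their list median r was 0.64 against 0.00 over all eligible ORFs, at a median length of 998 codons. Cytoskeleton and polarity factors had 5 among 31 (the formins BNI1 and BNR1, the myosin MYO3, and the polarity proteins SPA2 and BUD6), with a list median of 0.25. Chromatin remodellers and histone modifiers had 3 among 25 (INO80, SWR1, SET1), and cohesin, condensin and kinetochore genes had 3 among 26 (SMC3, SMC5, SCC4). The list of cytosolic lipid enzymes, lipid transfer proteins and the repressor OPI1 had 3 among 14 (OPI1, OSH2, OSH3). Tethers had 2 among 24 (USO1, TRS85), and karyopherins and DNA replication or repair 1 each, CRM1 and TEL1. No member came from the lists of single-copy ribosomal proteins (median r -0.77), glycolysis (-0.33), cytosolic chaperones (-0.21), initiation factors (-0.22), nascent chain factors (-0.43), clathrin and its adaptors (0.35), or RNA polymerase subunits (-0.23). The lists of aminoacyl tRNA synthetases (-0.14), soluble GET factors (-0.03), HOPS, CORVET and retromer (0.40) and autophagy factors (0.43) held none either. The lists of vesicle coats (0.33) and of SRP with its receptor (1.31) also held none, but 1 and 3 of their ORFs, among them SEC16 of the coats, were past the threshold and set aside by name. Less the median of each ORF's length class, r had a list median of 0.018 for nucleoporins and -0.083 for cytoskeleton and polarity. It was 0.021 for chromatin remodellers, 0.303 for cohesin, condensin and kinetochore, and -0.111 for the lipid list. Tethers had 0.063, karyopherins -0.428, and DNA replication and repair -0.154. Members are 145 of 3164 eligible ORFs, and no test was made of any list.

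Footprints on membranes were a measure the rule did not use, although the comparison shares the 2 soluble libraries with it, so that a low soluble count raises both ratios. Members were mostly higher on membranes. With edgeR's quasi-likelihood test, Benjamini-Hochberg adjusted over 5393 ORFs, 113 of 145 members were called higher in membrane than in soluble polysomes at an adjusted p under 0.05. The background was 16.2% of eligible Cytonuclear ORFs and 34.2% of all ORFs tested. The members' median log2 fold change was 0.82, against -0.20 for eligible ORFs, and 57 were higher by 2-fold or more, against 3.92% of eligible ORFs. A further 3 members were called lower, against 47.5% of eligible ORFs and 34.9% of all ORFs, and 29 were not called. Over all eligible ORFs the membrane fold change also rose with ORF length. Its median was -0.605 at 1 to 200 codons, 0.165 at 801 to 1000 and 0.738 at 1501 to 5000 codons. Members were longer than the other eligible ORFs, and the part of length in these differences was not tested. When the fractions were scaled to Cytonuclear ORFs in place of TMM, the median of all ORFs moved from -0.07 to 0.13, and 125 members were called higher, against 26.4% of eligible ORFs, and 1 lower. The log2 fold change of 7 members changed sign with this scaling, none of them called under either. Over all ORFs the same change of scale turned 1844 higher and 1882 lower calls into 2248 and 1031.

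UBX2 rose most, by 4.75 on the log2 scale (SE 0.11, adjusted p 1.09e-08 from edgeR), a 27.0-fold difference from the footprints given above. FAB1, the lipid kinase that makes phosphatidylinositol 3,5-bisphosphate on the vacuole, had 10.6 and 9.37 soluble, 213 and 187 membrane, and 46.2 and 54.1 SRP72-bound. Its log2 fold change was 4.32 (SE 0.12, adjusted p 1.64e-08), and its membrane values exceeded its SRP72-bound ones. SIP1 had 8.02 and 5.73 soluble, 122 and 104 membrane, and 57.4 and 58.5 SRP72-bound. SIP1 rose by 4.02 (SE 0.16, adjusted p 6.78e-08).

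PPZ1 had 10.4 and 8.70 soluble against 139 and 128 membrane, a log2 fold change of 3.79 (SE 0.11, adjusted p 1.73e-08), and its paralog PPZ2 rose by 3.53. YJL047C-A had 33.1 and 17.5 soluble and 502 and 193 membrane, and its 2 membrane libraries differed more than 2-fold. It rose by 3.78 with a wide SE of 0.47. RAD2, an endonuclease of excision repair, rose by 3.38, SEG1 by 3.19, ABP140 by 3.15 and RGR1, a Mediator subunit, by 2.95. These 10 had the largest increases. At 4-fold or more 25 members were called higher, against 33 of 3164 eligible ORFs, members included, and 1017 of 5393 ORFs tested. These 25 members also included the ubiquitin ligase RSP5 (2.79), the nucleoporin NUP170 (2.70), adenylate cyclase CYR1 (2.46), OSH2 (2.27) and VPS13 (2.21), named after their values were seen.

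The 3 lower members moved little. JHD1, a histone H3 demethylase, had 9.59 and 9.20 soluble and 6.27 and 6.97 membrane, a log2 fold change of -0.51 (SE 0.09, edgeR adjusted p 0.00135). SOH1 (-0.32) and RTG2 (-0.23), which senses mitochondrial dysfunction, lost their calls with scaling to Cytonuclear ORFs (edgeR adjusted p 0.366 and 0.714). SOH1 was also not called without soluble replicate 2 (0.158) or membrane replicate 1 (0.183), nor RTG2 without any 1 of the 4 libraries compared (edgeR adjusted p 0.053 to 0.107). CDC27 rose by 0.62 and MLP2 by 1.16, while PCM1 (-0.08, adjusted p 0.513; 0.11 with Cytonuclear scaling) and THI2 (0.28, adjusted p 0.311) were not called in the edgeR test. Among the members with the largest r, membrane footprints thus ranged from 27.0-fold above the soluble ones (UBX2) to values not called (PCM1, THI2).

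Over all members 113 of 145 were called higher. The members were also sorted into functional groups after their values had been seen, and whether the groups differ was not tested. In the group of organelle, lipid and vesicle proteins 20 of 22 were called higher on membranes, with a median log2 fold change of 1.47; TRS85 (-0.0025; 0.19 with Cytonuclear scaling) and PSD2 (0.02) were not called. In the nuclear pore and export group 7 of 7 were called, with a median of 0.95 and NUP170 at 2.70. Actin, endocytosis and polarity had 16 of 20 called, kinases, phosphatases and signalling 16 of 19, and chromatin and transcription 20 of 28 higher with 2 lower. Replication, repair and chromosome genes had 5 of 8, with a median of 0.45, and RNA processing and ribosome assembly 8 of 10, with a median of 0.46. Of the 31 members put in no group, 21 were called higher and 1 lower.

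In membranes from CHX culture the members were much closer to the soluble fraction. These are single libraries, so ratios centred on Cytonuclear ORFs are given with no test, and "past 2-fold" means a centred log2 ratio of 1 or more with 100 counts in both libraries. Of 133 members measured, 15 were past 2-fold, against 0.944% of eligible ORFs, and the median log2 ratio was 0.12. PLN1 (2.91), FAB1 (2.83), PPZ1 (2.68), UBX2 (2.63) and SIP1 (2.61) had the highest values. Of the 25 members that were higher on membranes by 4-fold or more without drug, 13 were among these 15. The like overlap among all eligible ORFs is not given. BBC1, an actin patch protein, was one that was not: it had 88.0 and 101 soluble and 404 and 444 membrane without drug, a log2 fold change of 2.17, and a log2 ratio of 0.23 in CHX culture. ABF1 (2.19 without drug, 0.19 in CHX culture) and ITC1 (2.37 and 0.37) were likewise past 4-fold without drug and below 2-fold in CHX culture. The 2 comparisons differ in culture treatment and in fraction, since the CHX-culture membrane and soluble libraries are of ribosomes, not of separated polysomes, and the part of each was not tested.

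SRP72-bound polysomes from CHX culture gave a second, independent pair of libraries for the quantity the rule used. Of 135 members measured, 92 were past 2-fold, against 8.21% of eligible ORFs, and 134 were above 0. The median log2 ratio was 1.52, with quartiles of 0.88 and 2.35, against -0.03 for the other eligible ORFs. The value was below r for 98 members and above it for 37. Members were chosen for a high r, and that choice alone favours a lower value in a second measurement. An effect of CHX on the ratio was not tested. Over the 135 members r and the CHX-culture ratio correlated with a Pearson r of 0.40 and a Spearman rho of 0.24, and over 2937 eligible ORFs with 0.85 and 0.91, both descriptions across genes. The threshold narrows the range of r among members, so the 2 sets of values are not directly comparable. Long ORFs that are not members also reached these ratios: 63.8% of other eligible ORFs of 1501 to 5000 codons were past 2-fold, beside 18 of 21 members, and 3.34% of those of 401 to 600 codons, beside 12 of 16.

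Some members stood higher in CHX culture than without drug. PLN1, the yeast perilipin, had 8.97 CPM (here and for the other single libraries without TMM scaling) in soluble polysomes of CHX culture and 244 in SRP72-bound ones, a centred log2 ratio of 5.99 (95% counting interval 5.78 to 6.20), against an r of 2.60. SLH1, a helicase of the complex that splits stalled ribosomes, had 71.0 and 1806, a ratio of 5.89 (5.82 to 5.97) against an r of 3.27. Neither was among the 20 members with the largest r. UBX2 (5.32), CDC27 (4.84) and PCM1 (4.79) followed, and all 3 of these were also among the 20 largest without drug. Intervals here and below are exact binomial and cover counting error only.

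Other members had a much lower ratio in CHX culture than without drug. RQT4, a further subunit of the complex SLH1 belongs to, had 11.8 and 11.9 in soluble and 71.0 and 71.8 in SRP72-bound polysomes without drug, an r of 2.86. In CHX culture it had 26.9 CPM soluble and 11.2 SRP72-bound, a centred log2 ratio of -0.03 (interval -0.25 to 0.19). The other members with the smallest ratios in CHX culture were VIK1 (0.16), a kinesin partner, MPP10 (0.18) and BMS1 (0.22), both of small ribosomal subunit assembly, and VRP1 (0.23), an actin regulator. In all 11 members were under 0.5. MLP2 had an r of 5.0 and a CHX-culture ratio of 0.96, and SET1 had 3.62 and 0.51. By function, 19 of 21 organelle, lipid and vesicle members measured were past 2-fold in CHX culture, with a median of 2.29, and 6 of 7 nuclear pore members, with a median of 2.08. RNA processing and ribosome assembly had 4 of 10, with a median of 0.81.

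**Figure D3:**
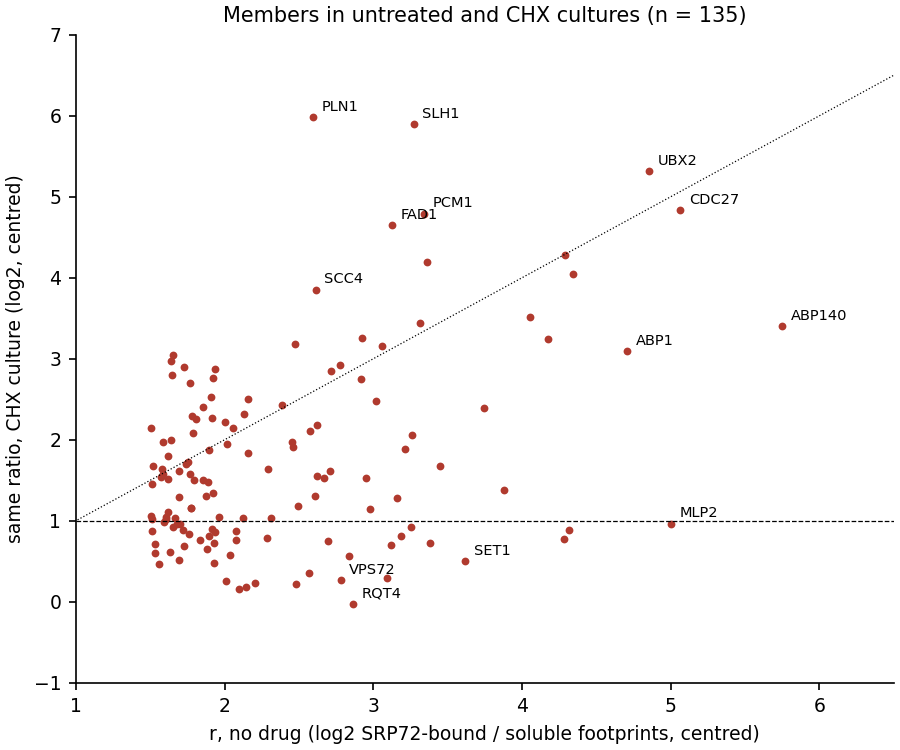
Centred log2 ratio of SRP72-bound over soluble polysome footprints in CHX culture (1 library each) against r without drug for the 135 members with 100 counts in both CHX-culture libraries; each point is a gene, the dotted line marks equal values and the dashed line a 2-fold ratio. PLN1 (5.99) and SLH1 (5.89) lie far above the dotted line, and RQT4 (-0.03), SET1 (0.51) and MLP2 (0.96) far below it.

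RNA of the SRP72 pulldown showed the members as well. In the CHX lysate 100 of 142 members measured were past 2-fold in SRP72-bound over soluble RNA, against 8.47% of eligible ORFs, and the median log2 ratio was 1.20 against -0.11 for the others. Centred on TMM factors in place of Cytonuclear ORFs, the counts were 62 members and 3.31% of eligible ORFs. Members past 2-fold in this RNA comparison and in the CHX-culture footprints, which share no library, numbered 67, which is 67 of 100 and 67 of 92. The share of eligible ORFs past 2-fold in both is not given, so this overlap has no background beside it. YJL047C-A (3.77) and MLP2 (3.76) had the largest RNA ratios. MLP2 had 222 CPM in soluble and 1022 in SRP72-bound RNA. FAD1, which makes flavin adenine dinucleotide, had 3.20, UBX2 3.17, and OPI1, a repressor of phospholipid genes that binds the ER membrane, 2.98. FAD1 had 24.6 CPM soluble and 76.6 SRP72-bound, and its interval was 3.07 to 3.33.

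The smallest RNA ratios were those of FAA1 (-0.07), a fatty acyl-CoA synthetase, MPP10 (0.09), VRP1 (0.12), SAC6 (0.13), the actin bundling protein fimbrin, and BBC1 (0.20). FAA1 and SAC6 had SRP72-bound footprints past 2-fold in CHX culture (2.71 and 1.58), so RNA and footprints of these messages differed in these single libraries. MPP10 and VRP1 were low in both. In this RNA comparison 34.6% of other eligible ORFs of 1501 to 5000 codons were past 2-fold, beside 20 of 22 members, and 5.13% of those of 401 to 600 codons, beside 13 of 20.

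After puromycin the RNA ratio of most members was lower. In the puromycin lysate 44 of 141 members were past 2-fold, against 8.61% of eligible ORFs, and the median was 0.66; centred on TMM factors, 29 members and 5.15% of eligible ORFs were. Of 139 members measured in both lysates, 113 were lower with puromycin and 26 higher, with a median change of -0.48 on the log2 scale against 0.04 for the other eligible ORFs. Of the 100 members past 2-fold in the CHX lysate, 38 were also past it with puromycin, and the like share of the other eligible ORFs is not given. ABP140 went from 2.88 to 0.08, MLP2 from 3.76 to 1.02, OPI1 from 2.98 to 0.62, UBX2 from 3.17 to 0.88 and PCM1 from 2.12 to 0.05. A lower ratio can reflect more soluble RNA, less SRP72-bound RNA or both. From the CHX to the puromycin lysate, ABP140 went from 89.4 to 319.6 CPM in soluble RNA and from 224 to 247 in SRP72-bound RNA. MLP2 went from 222 to 249.6 CPM soluble and from 1022 to 372 SRP72-bound. PLN1 went from 2.29 (interval 2.18 to 2.41) to -1.91 (-2.19 to -1.65), with 8.35 CPM in SRP72-bound RNA of the puromycin lysate and 42.9 in soluble RNA. CDC27 went only from 2.29 to 1.92, JHD1 from 2.11 to 2.23, and YJL047C-A from 3.77 to 3.72. The 2 lysates had 1 library per fraction, so these changes have no replicate check.

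**Figure D4:**
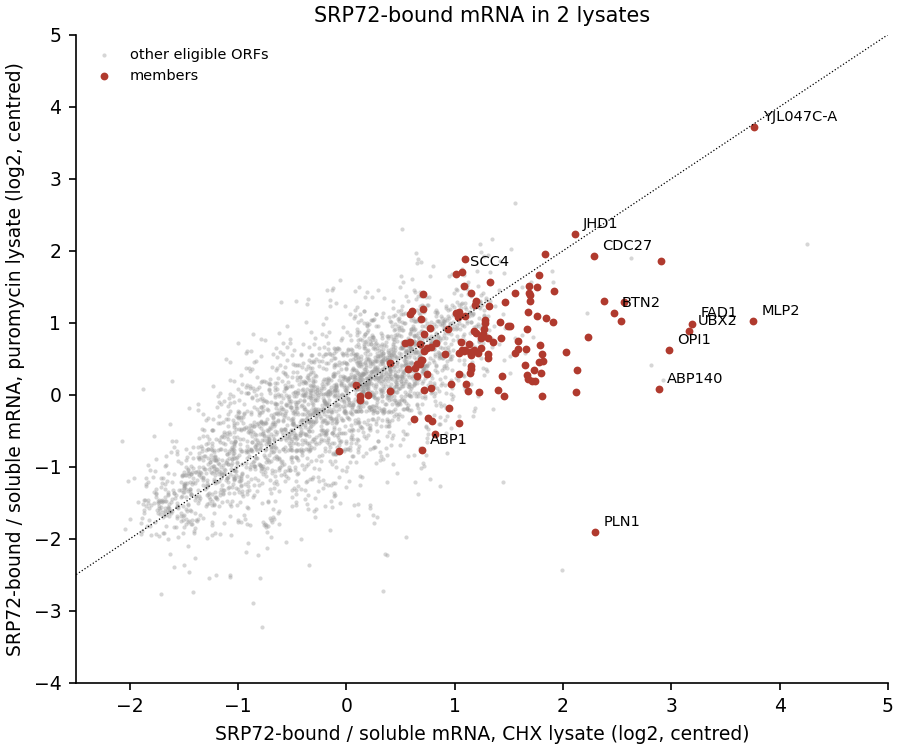
Centred log2 ratio of SRP72-bound over soluble RNA in the puromycin lysate against that in the CHX lysate, 1 library per fraction, for members (red) and other eligible Cytonuclear ORFs (grey) with 100 counts in the libraries compared; the dotted line marks equal values. Members lie mostly below the line (113 of 139), ABP140, MLP2 and PLN1 far below it, while YJL047C-A, JHD1 and CDC27 lie on or near it.

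Membrane RNA ratios followed a similar course at smaller size. They share the 1 soluble library of each lysate with the SRP72-bound ratios. A change in soluble RNA alone moves both, so the 2 comparisons are not independent. In the CHX lysate 26 of 145 members were past 2-fold in membrane over soluble RNA, against 1.72% of eligible ORFs, with a median of 0.38, and the highest were UBX2 (2.28), ABP140 (2.19) and SEG1 (1.95). Of the 15 members past 2-fold in membrane footprints of CHX culture, 13 were among these 26. With puromycin 1 of 144 members was past 2-fold, against 0.57% of eligible ORFs, with a median of 0.16. That member was NGL3 (1.31), and 108 of 144 members were lower with puromycin than with CHX. The other eligible ORFs had medians of -0.023 with CHX and -0.013 with puromycin, and their share lower with puromycin is not given. UBX2 was at 0.10, ABP140 at 0.42 and SEG1 at 0.30. In membrane RNA UBX2 had 162 CPM with CHX and 67.7 with puromycin, SEG1 222 and 155, and ABP140 283 and 385.

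W303 and prt1-1, whose labels name no tag, gave membrane RNA with no pulldown involved. In W303 at 25 °C 46 of 128 members were past 2-fold, against 6.5% of eligible ORFs, with a median log2 ratio of 0.74; centred on TMM factors, 29 members and 3.33% of eligible ORFs were. In W303 at 37 °C 27 of 138 were, against 2.55%, with a median of 0.51. In prt1-1 at 25 °C 54 of 140 members were past 2-fold, against 8.45%, with a median of 0.80; centred on TMM factors, 32 members and 4.21% of eligible ORFs were. In prt1-1 at 37 °C 24 of 141 were, against 5.92%, with a median of 0.51. Of the members measured at both temperatures the ratio was lower at 37 °C for 99 of 128 in W303 and for 85 of 138 in prt1-1. The median changes were -0.30 in W303 and -0.17 in prt1-1, against 0.01 and 0.08 for the other eligible ORFs. How many of those others were lower at 37 °C is not given. The W303 membrane library at 25 °C was the shallowest, with 3.1 M counts.

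Individual members behaved differently from that median. UBX2 had log2 ratios of 3.39 and 3.18 in W303 at 25 °C and 37 °C, and 2.61 and -0.54 in prt1-1. PLN1 had 2.91 and 3.65 in W303, and 2.53 and -0.87 in prt1-1. FAD1 had 1.85 and 2.46 in W303, and 2.15 and -1.16 in prt1-1. For these 3 genes the prt1-1 value at 37 °C was the only one of the 4 below 0. ABP140 had 3.67 and 2.96 in W303 and 2.19 and 0.69 in prt1-1, lower at 37 °C in both strains and above 0 in each. NUP170 had 1.3 and 0.93 in W303 and 1.02 and 1.07 in prt1-1, nearly the same at both temperatures in the mutant. MLP2 stayed between 0.90 and 1.54 in these 4 comparisons. Each value rests on 1 library per fraction, and W303 and CY2522 may differ beyond the prt1-1 allele, so strain and allele cannot be told apart.

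**Figure D5:**
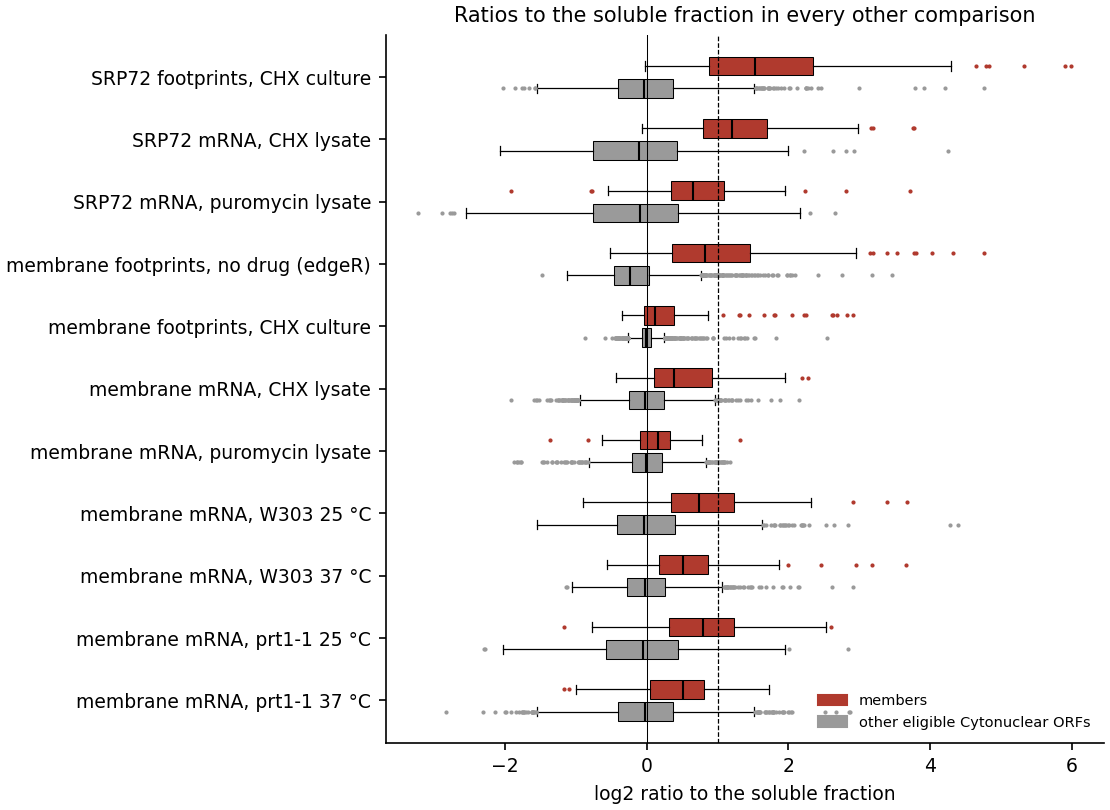
Log2 ratio to the soluble fraction in the 11 comparisons other than r, for members (red) and other eligible Cytonuclear ORFs (grey). Boxes give the quartiles and median, whiskers reach 1.5 times the interquartile range, points lie beyond, and the dashed line marks 2-fold. Membrane footprints without drug share the 2 soluble libraries that chose the members, and their values are edgeR log2 fold changes with TMM scaling. The other ratios are centred on Cytonuclear ORFs. The member median is above that of the others in each comparison, most in SRP72-bound footprints of CHX culture (1.52 against -0.03) and least in membrane footprints of CHX culture (0.12) and membrane RNA with puromycin (0.16).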

How the data were processed

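Footprint and RNA tables of 5904 ORFs hold raw counts per ORF as deposited by the authors, per the file headers; 3 lines naming no ORF were left out of each, and these held no values. The submitters' processing notes name cutadapt 1.3, Bowtie, TopHat, CASAVA and sacCer3; strandedness and the counting of multiply matching reads are not stated in the sources at hand. The authors' deposited log2 enrichments were used only as a check: the SRP enrichment equals the log2 ratio of counts plus 1.70 (SD 0.02, over 4908 ORFs). Classes, lengths in codons and binding positions are the authors' deposited annotation. The BY4741 RNA columns that name no drug were assigned to the CHX lysate because the rest name puromycin. Of 30 labelled samples, the 6 monosome samples are not analysed here.

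The 6 untreated polysome libraries were fitted with edgeR 4.0.16 (R 4.3.3): TMM, filterByExpr (minimum count 10, total 15), quasi-likelihood test, Benjamini-Hochberg at 0.05, 3 residual degrees of freedom, common biological coefficient of variation 0.0805. The fit was tested on simulated data. Single-library ratios are log2 of counts (0.5 added) less the median of Cytonuclear ORFs with 100 or more counts in both libraries. Alternatives included DESeq2 1.42.0. The 145 members matched RefSeq by locus tag.

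The members and gene lists were chosen with earlier results of these data known. Genes named were the 20 largest r, 3 on either side of the threshold, the 10 largest membrane calls each way, the 5 largest and smallest SRP72-bound ratios in CHX culture and in CHX lysate RNA, the 3 longest and shortest, overlapping or paralogous members, and list members. Others were named after their values were seen, among them those compared between lysates and strains. The planned hydropathy description was not made.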

Additional observations from a re-analysis of the deposited data

Results flagged for a closer look

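The SRP72-bound over soluble RNA ratio of PLN1 was -1.91 (log2, centred) in the puromycin lysate and 2.29 in the CHX lysate, opposite directions in 2 lysates with 1 library per fraction; the difference was not tested. FAD1 had a membrane over soluble RNA ratio of -1.16 in prt1-1 at 37 °C, against 2.15 in prt1-1 at 25 °C and 2.46 in W303 at 37 °C. These 2 differences of direction, between temperatures and between strains, were not tested either. For FAD1 in prt1-1 at 37 °C the counting interval was -1.37 to -0.96.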

How the results depend on the processing

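Membership depended most on the threshold: r of 1 gave 308 members and r of 2 gave 78, and leaving out either replicate of a fraction gave 135 to 161. Measured against its length class, r was past 1.5 for 98 ORFs, a check added after seeing the data. Members called higher on membranes numbered 107 to 115 with 1 library left out, and 1 to 3 were called lower; without soluble replicate 2 or membrane replicate 1 the lower count was 1, as with scaling to Cytonuclear ORFs and with DESeq2 (1 each). With the replicate block 117 were called higher and 3 lower; the replicate numbers were not taken as pairs, since deviations of same-numbered libraries correlated at 0.32, 0.12 and 0.09. Centring single libraries on TMM factors lowered the members past 2-fold to 62 in SRP72-bound RNA of the CHX lysate (3.31% of eligible ORFs), 29 with puromycin (5.15%), 29 in W303 (3.33%) and 32 in prt1-1 (4.21%) at 25 °C. A 1.5-fold limit, which also admits more eligible ORFs, gave 83 members in SRP72-bound RNA with puromycin (21.1% of eligible ORFs), 29 in membrane footprints of CHX culture (2.05%), 56 and 15 in membrane RNA of the CHX and puromycin lysates (7.95% and 5.23%), 76 and 65 in W303 at 25 °C and 37 °C (18.5% and 9.66%), and 84 and 61 in prt1-1 (20.2% and 17.2%). The cause of these shifts was not tested. Scaling to Cytonuclear ORFs turned the median of all ORFs from -0.07 to 0.13 and changed the sign of 7 members' membrane fold changes; no called member changed sign under any alternative run. Of the alternatives for whole counts, 60 left the count within 1.5 times and 18 did not. Single libraries limit every ratio outside the untreated polysomes to counting error.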

Other observations

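Several members are subunits of the same complexes, a grouping noticed after the values were seen and given without a test. Only subunits past the threshold are listed. Values of the other subunits are not given, so the share of each complex past the threshold cannot be read from these lists. TOR2, AVO1, AVO2 and TSC11, of the growth-regulating TOR complex 2, had r of 1.87, 2.08, 2.31 and 1.72. Their SRP72-bound RNA ratios in the CHX lysate were 1.09, 1.04, 1.01 and 1.03, and with puromycin 1.10, 0.58, 1.67 and 1.08. On membranes TOR2 (0.94) and AVO1 (0.38) were called higher by edgeR, while AVO2 (0.13) and TSC11 (0.22) were not; TSC11 was called with scaling to Cytonuclear ORFs (0.41, edgeR adjusted p 0.0089, against 0.0807 with TMM). CDC27 and DOC1 belong to the anaphase-promoting complex, and SWR1 (r 3.19) and VPS72 (r 2.78) to one chromatin remodelling complex. Both of the latter had SRP72-bound footprint ratios below 2-fold in CHX culture, 0.81 and 0.26, and RNA ratios of 1.76 and 1.67 in the CHX lysate. ECM16, BMS1, MPP10 and TSR1 act in small ribosomal subunit assembly and had CHX-culture ratios of 0.78, 0.22, 0.18 and 0.25. Factors of the same process whose names begin with UTP, NOP or RRP were left out by the rule. Among eligible ORFs with such names, only NOP14 (r 1.753) and RRP5 (r 1.505) were past the threshold.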
